A study of Rattus norvegicus with 24 samples.

Results

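Microglia, the resident macrophages of the brain, and the first component of complement were followed through 10 genes: Aif1, Cd68, Itgam, C1qa, C1qb, C1qc, Csf1r, Cx3cr1, Tyrobp and Ctss. The genes were taken by name, and every probe set whose single platform symbol is one of them was used, which gave 11 of 31099 probe sets. Aif1 had 2 probe sets and each other gene had 1. RNA came from a section of about 30 mg of forebrain from male Fisher 344 rats 11 to 12 weeks old, 1 rat and 1 Affymetrix expression array each, and 4 rats in each of 6 groups. The groups received a single dose of vehicle or of 5, 20, 50, 200 or 500 mg/kg D-serine, a co-agonist of the NMDA type of glutamate receptor, and all rats were killed 96 h later. The labels name a strain and no transgene, allele or second agent, they give neither the route of dosing nor the plane of the section, and vehicle is the only control. The 5 dose groups share the same vehicle arrays. The comparisons address how these transcripts stood in each dose group against vehicle and against each other.

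The members cover several steps of microglial biology. C1qa, C1qb and C1qc encode the A, B and C chains of C1q, the recognition subunit that starts the classical complement pathway, and in the brain C1q is made mainly by microglia and is known for tagging synapses and debris. Csf1r is the receptor for the growth factors Csf1 and Il34, on which microglia depend for survival, and Cx3cr1 is the receptor for fractalkine, a chemokine of neurons. Itgam is the alpha chain of complement receptor 3, which binds complement fragments deposited on a target. Tyrobp is the adaptor through which Trem2 and other surface receptors signal. Aif1, the source of the Iba1 stain, encodes a calcium-binding protein of the actin cytoskeleton, Ctss is a lysosomal cysteine protease that trims the invariant chain of MHC class II, and Cd68 is a glycoprotein of late endosomes and lysosomes. In tissue RNA, fewer microglia and less RNA per microglial cell cannot be told apart.

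RefSeq promoter windows of 300 bases (250 before and 50 after the start, GRCr8 assembly) matched 7 of the 10 genes. Those of C1qb and Cx3cr1, the members furthest above vehicle among those bright enough to test, and of C1qa and Ctss, the pair that went together most closely across arrays, are shown here 5′ to 3′ on the strand of the gene. Capitals mark every match, on either strand, of GAGGAA or GGAAGT, purine-rich cores of the kind bound by ETS factors such as PU.1, a regulator of macrophage genes. The 2 motifs can overlap when they lie side by side, as in the single run of capitals of Ctss.
C1qb, chr5:154407778-154408077, minus strand: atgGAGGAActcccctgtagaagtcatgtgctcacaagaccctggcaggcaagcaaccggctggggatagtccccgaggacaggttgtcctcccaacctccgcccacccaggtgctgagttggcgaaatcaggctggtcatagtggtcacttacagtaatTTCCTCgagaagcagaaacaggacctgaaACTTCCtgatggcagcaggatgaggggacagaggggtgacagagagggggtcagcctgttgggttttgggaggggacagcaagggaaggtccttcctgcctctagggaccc
C1qa, chr5:154419884-154420183, minus strand: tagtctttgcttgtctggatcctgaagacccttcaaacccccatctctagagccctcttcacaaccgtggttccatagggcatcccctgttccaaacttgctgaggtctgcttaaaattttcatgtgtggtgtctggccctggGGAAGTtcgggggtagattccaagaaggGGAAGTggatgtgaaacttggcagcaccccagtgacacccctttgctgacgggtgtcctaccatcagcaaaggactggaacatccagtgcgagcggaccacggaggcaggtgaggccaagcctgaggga
Ctss, chr2:185775146-185775445, plus strand: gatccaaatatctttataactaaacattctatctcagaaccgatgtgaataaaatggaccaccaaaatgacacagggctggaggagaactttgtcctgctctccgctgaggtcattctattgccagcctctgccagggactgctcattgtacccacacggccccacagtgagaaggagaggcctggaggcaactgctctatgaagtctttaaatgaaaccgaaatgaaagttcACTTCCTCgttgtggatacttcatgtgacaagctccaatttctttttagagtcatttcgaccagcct
Cx3cr1, chr8:128677017-128677316, minus strand: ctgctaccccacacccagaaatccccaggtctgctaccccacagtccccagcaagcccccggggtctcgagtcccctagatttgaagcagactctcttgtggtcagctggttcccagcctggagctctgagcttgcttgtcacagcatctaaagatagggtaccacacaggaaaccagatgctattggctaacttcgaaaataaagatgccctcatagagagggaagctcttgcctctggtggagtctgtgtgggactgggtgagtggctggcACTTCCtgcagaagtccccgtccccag
GAGGAA lay in 5 of the 7 windows, against 27.3% of the 21842 promoters of the same length, GGAAGT in 5, against 23.7%, and at least 1 of them in all 7, against 43.0%. A match is a description of the letters and not a site of binding. C1qb, C1qc and C1qa follow each other without another gene between them on rat chromosome 5 in this annotation.

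The deposited intensities were quantile normalized and taken as log2(intensity + 16), the scale of every level given here, on which a difference of 1 is a doubling. Before normalization the array medians ran from 55.8 to 103.65 in intensity. One array stood apart. The median correlation of 500 mg/kg replicate 4 with the other 23 arrays was 0.855, against 0.957 to 0.971 for those arrays. On it the forebrain neuron genes Nrgn and Camk2a read 6.41 and 7.78 where the other arrays read 10.82 to 11.77 and 11.23 to 12.05, and the cerebellar granule cell gene Gabra6 read 10.73 where the others read 4.40 to 5.98. It was the lowest of the 24 arrays in 6 of the 8 members that passed the filter on dim probe sets (75%), against 21.8% of all 10205 genes tested, so the members' differences at 500 mg/kg are given with and without it. The Gapdh control probe sets give a measure of RNA integrity and labelling, their 3' signal over their 5' signal in log2 units. This ratio averaged 0.83 ± 0.06 for vehicle, 0.19 ± 0.07 for the 5 mg/kg rats, 0.18 ± 0.04 for the 20 mg/kg rats, 0.34 ± 0.17 for the 50 mg/kg rats, 0.60 ± 0.21 for the 200 mg/kg rats and 0.75 ± 0.14 for the 500 mg/kg rats (SD, n = 4). It did not overlap vehicle at 5, 20 and 50 mg/kg (exact two-sided permutation p = 0.0286 each, the smallest possible, adjusted p = 0.0476 over 10 comparisons). The part of this difference in the results was not tested beyond the fits that carry the ratio as a covariate. Because the ratio goes with the group, those fits have wider SEs and cannot tell the ratio from the dose.

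**Figure D1:**
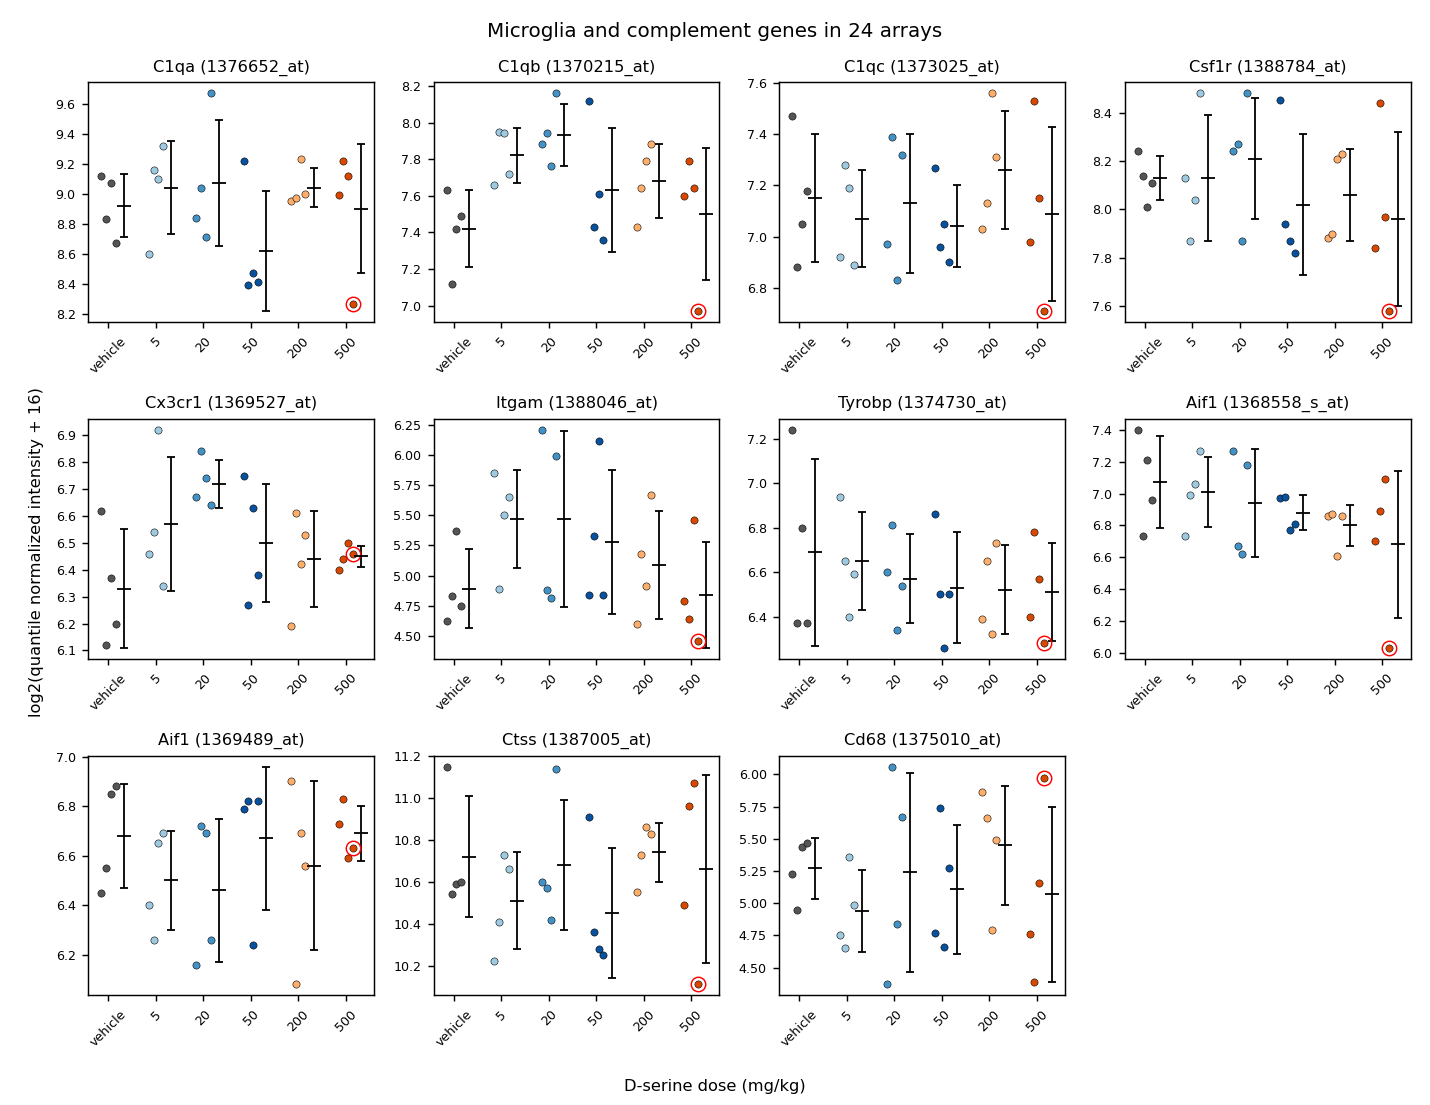
Level of each member probe set on the 24 arrays, as log2(quantile normalized intensity + 16) on the vertical axis, with the dose groups in order from vehicle on the horizontal axis. Points are arrays, horizontal bars the group mean, whiskers the SD over 4 arrays, and the red ring 500 mg/kg replicate 4. Each panel has its own vertical range. C1qb lies above vehicle on all 4 arrays at 5 and at 20 mg/kg, Cx3cr1 at 20 mg/kg, and in the other panels the groups overlap vehicle.

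Across the dose series, 0 of the 8 members tested rose or fell against vehicle at any dose in limma (adjusted p under 0.05 over all probe sets). The same rule called 3.23% of 10205 genes at 5 mg/kg, 5.16% at 20 mg/kg, 0.392% at 50 mg/kg and 0% both at 200 and at 500 mg/kg. At an unadjusted p under 0.05 there were 1, 2, 0, 0 and 1 of the 8 members over the doses from 5 to 500 mg/kg, where 14.8%, 17%, 9.99%, 4.4% and 6.71% of all genes were found. The median log2 difference from vehicle over the 8 genes was -0.02, 0.04, -0.14, 0.07 and -0.06 at 5, 20, 50, 200 and 500 mg/kg, beside -0.01, -0.01, -0.01, 0.0 and 0.0 over all genes, and 4, 4, 2, 5 and 2 of the 8 lay above vehicle. Without 500 mg/kg replicate 4 the median at 500 mg/kg was 0.10, beside 0.01 over all genes, 5 of the 8 lay above vehicle and 0 passed. The unadjusted counts at 5, 50 and 200 mg/kg lay below the share of all genes, and those at 20 and 500 mg/kg above it. A count at or below that share is not a result about the members. With 8 genes a share turns on 1 gene, so the 2 higher counts are not read as one either. Of the 40 gene and dose comparisons, 36 had a 95% interval that held 0, and all 40 intervals lay within 1 log2 unit of vehicle. The bounds nearest that limit were -0.79 and 0.87, or 0.58-fold and 1.83-fold.

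**Figure D2:**
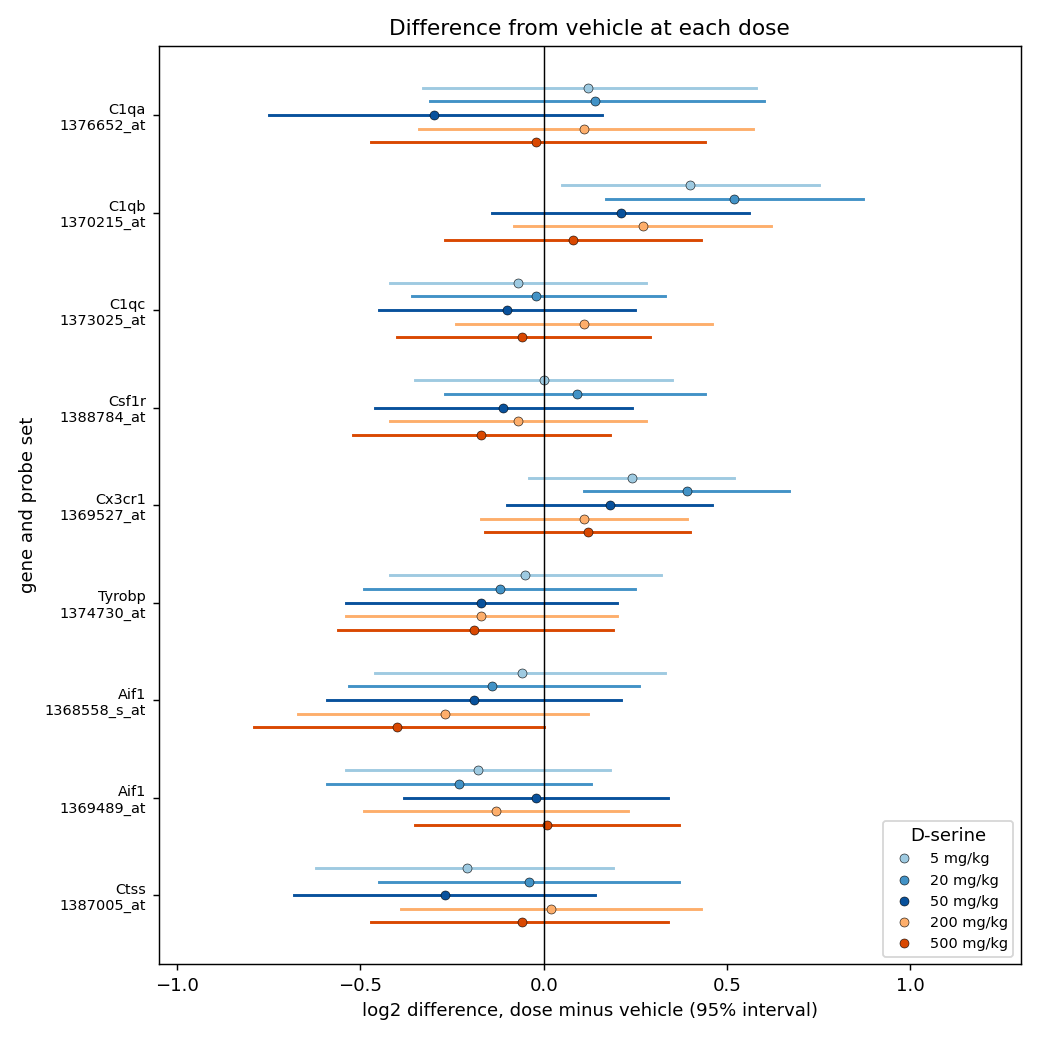
Log2 difference from vehicle of the 9 member probe sets past the filter, at 5 doses in order from 5 to 500 mg/kg. Points are limma estimates and lines their 95% intervals, from 4 arrays per group. The intervals of C1qb at 5 and 20 mg/kg and of Cx3cr1 at 20 mg/kg lie above 0, that of the first Aif1 probe set at 500 mg/kg lies at or below 0, and the others hold 0.

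The B chain gene C1qb (probe set 1370215_at) was the furthest from vehicle of the 8 members past the filter. Its 4 arrays read 7.63, 7.12, 7.42 and 7.49 in vehicle, 7.66, 7.95, 7.94 and 7.72 at 5 mg/kg, and 7.88, 7.94, 7.76 and 8.16 at 20 mg/kg. At 50 mg/kg they read 8.12, 7.43, 7.61 and 7.36, at 200 mg/kg 7.43, 7.64, 7.79 and 7.88, and at 500 mg/kg 7.60, 7.79, 7.64 and 6.97. All 4 arrays at 5 and at 20 mg/kg lay above all 4 vehicle arrays, and the other 3 doses overlapped vehicle. The difference from vehicle was 0.40 ± 0.17 at 5 mg/kg (SE, n = 4, limma adjusted p = 0.188) and 0.52 ± 0.17 at 20 mg/kg (limma adjusted p = 0.0612), or 1.32-fold and 1.43-fold, and neither passed. Not overlapping and higher than vehicle were 1 of 8 members at 5 mg/kg (12.5%), against 5.62% of all genes, and 2 of 8 at 20 mg/kg (25%), against 6.03%. At 50, 200 and 500 mg/kg the difference was 0.21, 0.27 and 0.08 (SE 0.17 each). Without 500 mg/kg replicate 4 it was 0.26 ± 0.15 at 500 mg/kg (limma adjusted p = 0.858), and without 50 mg/kg replicate 1 it was 0.05 ± 0.16 at 50 mg/kg (adjusted p = 0.938).

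The 20 mg/kg value of C1qb sat close to the threshold, and its call turned on the setting. It passed without 500 mg/kg replicate 4 (0.52, limma adjusted p = 0.0183) and without 50 mg/kg replicate 1 (adjusted p = 0.0331). With each array centred on its median it was 0.59 (adjusted p = 0.0222). With the Gapdh ratio as a covariate it was 0.33 ± 0.33 (limma adjusted p = 0.85), and with that covariate and without 500 mg/kg replicate 4 it was 0.68 ± 0.30 (adjusted p = 0.984). Over the 40 settings run the adjusted p ranged from 0.000922 to 0.984.

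The A chain gene C1qa (1376652_at) and the C chain gene C1qc (1373025_at) did not pass at any dose. C1qa averaged 8.92 ± 0.21 for vehicle, then 9.04 ± 0.31, 9.07 ± 0.42, 8.62 ± 0.40, 9.04 ± 0.13 and 8.90 ± 0.43 over the doses from 5 to 500 mg/kg (SD, n = 4). At 50 mg/kg its arrays read 9.22, 8.39, 8.47 and 8.41, against 9.12, 8.83, 9.07 and 8.67 in vehicle. There 3 of the 4 lay below every vehicle array and replicate 1 above them all, for a difference of -0.30 ± 0.22 (SE, limma adjusted p = 0.636), or -0.50 ± 0.21 without replicate 1 (adjusted p = 0.259). The C1qa difference of 0.14 at 20 mg/kg turned to -0.06 ± 0.21 without 20 mg/kg replicate 4, and that of -0.02 at 500 mg/kg to 0.19 ± 0.20 without 500 mg/kg replicate 4. C1qc averaged 7.15 ± 0.25 for vehicle, then 7.07 ± 0.19, 7.13 ± 0.27, 7.04 ± 0.16, 7.26 ± 0.23 and 7.09 ± 0.34 over the same doses. Its differences ran from -0.10 to 0.11, each within its SE of 0.17, and without 500 mg/kg replicate 4 the C1qc difference there was 0.07 ± 0.17. The 3 chains of 1 protein thus stood at 0.14 (C1qa), 0.52 (C1qb) and -0.02 (C1qc) against vehicle at 20 mg/kg. Whether the chains differ from each other in this was not tested.

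Cx3cr1 (1369527_at), the fractalkine receptor, was the other member above vehicle on every array of a dose. Its arrays read 6.62, 6.12, 6.37 and 6.20 in vehicle and 6.46, 6.54, 6.92 and 6.34 at 5 mg/kg. The arrays of the 20 mg/kg rats read 6.67, 6.84, 6.74 and 6.64, and those of the 50 mg/kg rats 6.75, 6.27, 6.63 and 6.38. At 200 mg/kg they lay between 6.19 and 6.61 and at 500 mg/kg between 6.40 and 6.50. The 20 mg/kg arrays cleared vehicle by little, 6.64 over 6.62, and the other doses overlapped it. The difference at 20 mg/kg was 0.39 ± 0.13 (SE, n = 4, limma adjusted p = 0.0748) and did not pass, and it was 0.38 ± 0.26 with the Gapdh covariate (adjusted p = 0.79). At 500 mg/kg it was 0.12 both with and without replicate 4. Without vehicle replicate 1, the highest vehicle array, the 20 mg/kg difference was 0.49 and passed (limma adjusted p = 0.0388).

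Csf1r (1388784_at), the receptor that holds up microglial numbers, stayed near vehicle. It averaged 8.13 ± 0.09 for vehicle, then 8.13 ± 0.26, 8.21 ± 0.25, 8.02 ± 0.29, 8.06 ± 0.19 and 7.96 ± 0.36 over the doses from 5 to 500 mg/kg (SD, n = 4), and the 95% intervals of its differences ran from -0.52 to 0.44. At 500 mg/kg the Csf1r difference was -0.17 ± 0.17, and -0.04 ± 0.17 without replicate 4. Tyrobp (1374730_at), the adaptor, averaged 6.69 ± 0.42 for vehicle, then 6.65 ± 0.22, 6.57 ± 0.20, 6.53 ± 0.25, 6.52 ± 0.20 and 6.51 ± 0.22 over these doses. Its vehicle arrays read 7.24, 6.37, 6.80 and 6.37, a wider spread than in any dose group. No difference of Tyrobp passed, the furthest being -0.19 ± 0.18 at 500 mg/kg (SE, limma adjusted p = 0.837) and -0.11 ± 0.19 there without replicate 4.

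Aif1 is read by 2 probe sets, which disagreed at the highest dose. The brighter, 1368558_s_at, read 7.40, 6.73, 7.21 and 6.96 in vehicle, and its group means were 7.01, 6.94, 6.88, 6.80 and 6.68 at 5, 20, 50, 200 and 500 mg/kg, in the order of the doses. At 500 mg/kg its arrays read 6.70, 6.89, 7.09 and 6.03, so replicate 1 lay just under the lowest vehicle array, replicates 2 and 3 within the vehicle range, and replicate 4 below all other arrays. The difference was -0.40 ± 0.19 (SE, n = 4, unadjusted p = 0.0482 and adjusted p = 0.715 in limma), and -0.18 ± 0.17 without replicate 4 (adjusted p = 0.917). Its slope over dose rank was -0.077 ± 0.030 per step (limma unadjusted p = 0.0166, adjusted p = 0.832), and -0.05 ± 0.03 without that array. The other probe set, 1369489_at, averaged 6.69 ± 0.11 at 500 mg/kg and 6.68 ± 0.21 in vehicle, a difference of 0.01 ± 0.17, with a slope of 0.012 ± 0.029.

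Ctss (1387005_at), the lysosomal protease, read 11.15, 10.54, 10.59 and 10.60 in vehicle. Its means were 10.72 ± 0.29 for vehicle, then 10.51 ± 0.23, 10.68 ± 0.31, 10.45 ± 0.31, 10.74 ± 0.14 and 10.66 ± 0.45 over the doses from 5 to 500 mg/kg (SD, n = 4). Vehicle replicate 1 stood above the other vehicle arrays, every dose group overlapped vehicle, and the differences ran from -0.27 to 0.02 with an SE of 0.20. Without 50 mg/kg replicate 1 the Ctss difference at 50 mg/kg was -0.42 ± 0.20 (limma adjusted p = 0.308), and without 500 mg/kg replicate 4 that at 500 mg/kg was 0.12 ± 0.18, against -0.06 with it. Cd68 (1375010_at) and Itgam (1388046_at) were too dim for the test, with means over all arrays of 5.18 and 5.17 where probe sets under 5.98 were left out. Cd68 ranged from 4.37 to 6.06 over the 24 arrays and Itgam from 4.46 to 6.21. In a fit with no filter, Itgam stood at 0.58 ± 0.34 at 5 mg/kg (SE, limma adjusted p = 0.479) and 0.58 ± 0.34 at 20 mg/kg (adjusted p = 0.427), and Cd68 at -0.34 ± 0.35 at 5 mg/kg (adjusted p = 0.753). Neither passed at any dose there.

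Set against each other, the dose groups gave no call either. An F test of the 5 differences called 0 of 8 members (smallest adjusted p = 0.28 for C1qb in limma, with none at an unadjusted p under 0.05), against 3.36% of all genes. A slope over dose rank called 0 (smallest adjusted p = 0.832, with 1, Aif1, at an unadjusted p under 0.05), against 0% of all genes, or 5.74% at an unadjusted p under 0.05. Over the 10 pairs of dose groups, 0 of 80 comparisons passed in limma (smallest adjusted p = 0.123). The same rule called 0.206% of genes at 200 against 5 mg/kg, 2.25% at 500 against 5, 0.529% at 200 against 20, 4.35% at 500 against 20, 0.098% at 500 against 50 mg/kg and 0% in the other 5 pairs. An unadjusted p under 0.05 was found in 2 of the 80. C1qb averaged 7.5 ± 0.36 at 500 mg/kg and 7.93 ± 0.17 at 20 mg/kg, a difference of -0.43 ± 0.17 (SE, limma adjusted p = 0.123), in a pair where 19.3% of all genes had an unadjusted p under 0.05. Without 500 mg/kg replicate 4 that difference was -0.26 ± 0.15 (limma adjusted p = 0.421), while C1qa and Ctss stood 0.49 ± 0.20 and 0.39 ± 0.18 above 50 mg/kg (adjusted p = 0.382 and 0.457), and none passed. Cx3cr1 averaged 6.44 ± 0.18 at 200 mg/kg and 6.72 ± 0.09 at 20 mg/kg, a difference of -0.29 ± 0.13 (limma adjusted p = 0.372), in a pair where 9.59% of all genes did so. Its arrays at 200 and at 500 mg/kg all lay below its arrays at 20 mg/kg, as did 3.74% and 4.58% of all genes. When the groups of each of the 10 genes (Aif1 by its brighter probe set) were put in order of their means, the arrays of neighbouring groups overlapped in all 50 steps, and the widest step was 0.28, for C1qa between 500 and 50 mg/kg. Neighbours in an order made from the means are close by construction, so this describes the order and tests nothing.

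**Figure D3:**
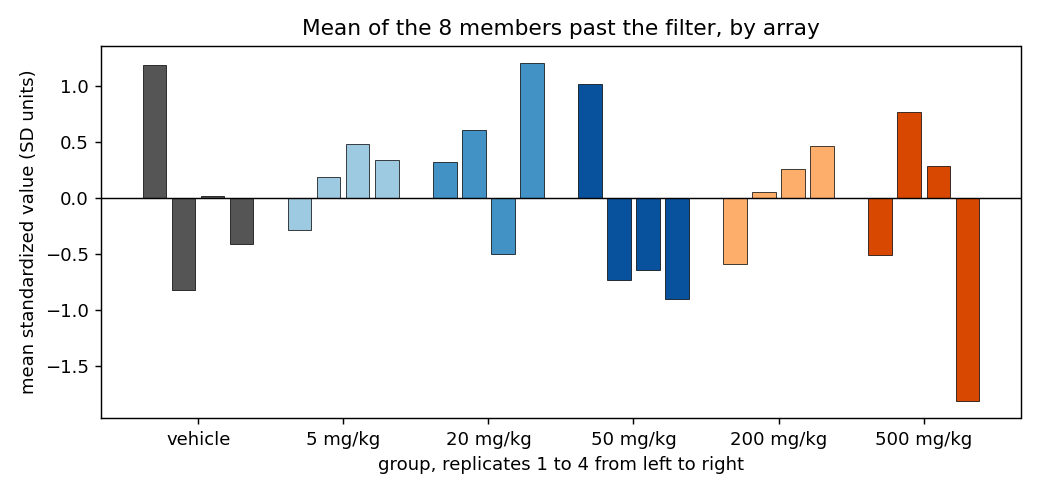
Mean over the 8 members past the filter of their standardized levels (each gene set to mean 0 and SD 1 over the 24 arrays), on the vertical axis, for each array, grouped by dose from vehicle to 500 mg/kg. Bars within a group are replicates 1 to 4. The 500 mg/kg replicate 4 lies at -1.82, the highest arrays are 20 mg/kg replicate 4 at 1.21 and vehicle replicate 1 at 1.19, and each group holds arrays on both sides of 0.

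Rats of the same group differed from each other in these genes. The within-group SD of the members ran from 0.18 (Cx3cr1) to 0.34 (C1qa), against a median of 0.19 over all genes. As a mean of standardized levels, single arrays of 3 different groups stood above 1, namely vehicle replicate 1 at 1.19, 20 mg/kg replicate 4 at 1.21 and 50 mg/kg replicate 1 at 1.02. The lowest was 500 mg/kg replicate 4 at -1.82, and the next lowest was 50 mg/kg replicate 4 at -0.90.

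The 3 C1q chain genes went together from rat to rat. Over 24 arrays C1qa and C1qb correlated at Pearson's r = 0.68 (permutation p = 0.00026, adjusted p = 0.00078 over 3 pairs) and Spearman's rho = 0.67 (permutation p = 0.00052, adjusted p = 0.00078). C1qa and C1qc gave r = 0.65 (permutation p = 0.00075, adjusted p = 0.00113) and rho = 0.68 (permutation p = 0.00036, adjusted p = 0.00078), and C1qb and C1qc r = 0.61 (permutation p = 0.00144, adjusted p = 0.00144) and rho = 0.60 (permutation p = 0.00231, adjusted p = 0.00231). Without the 2 arrays farthest from the median of the first gene r was 0.51, 0.57 and 0.47 for these pairs, and without 500 mg/kg replicate 4 it was 0.60, 0.58 and 0.52. After the group means were taken out of all 24 arrays, with 500 mg/kg replicate 4 kept, r was 0.80, 0.67 and 0.83. That array was the lowest of the 24 for all 3 chains, and it is also in the permutation tests above. All arrays share their normalization, and the groups differ in the 3' to 5' ratios, so these values describe the arrays and not a control in common.

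**Figure D4:**
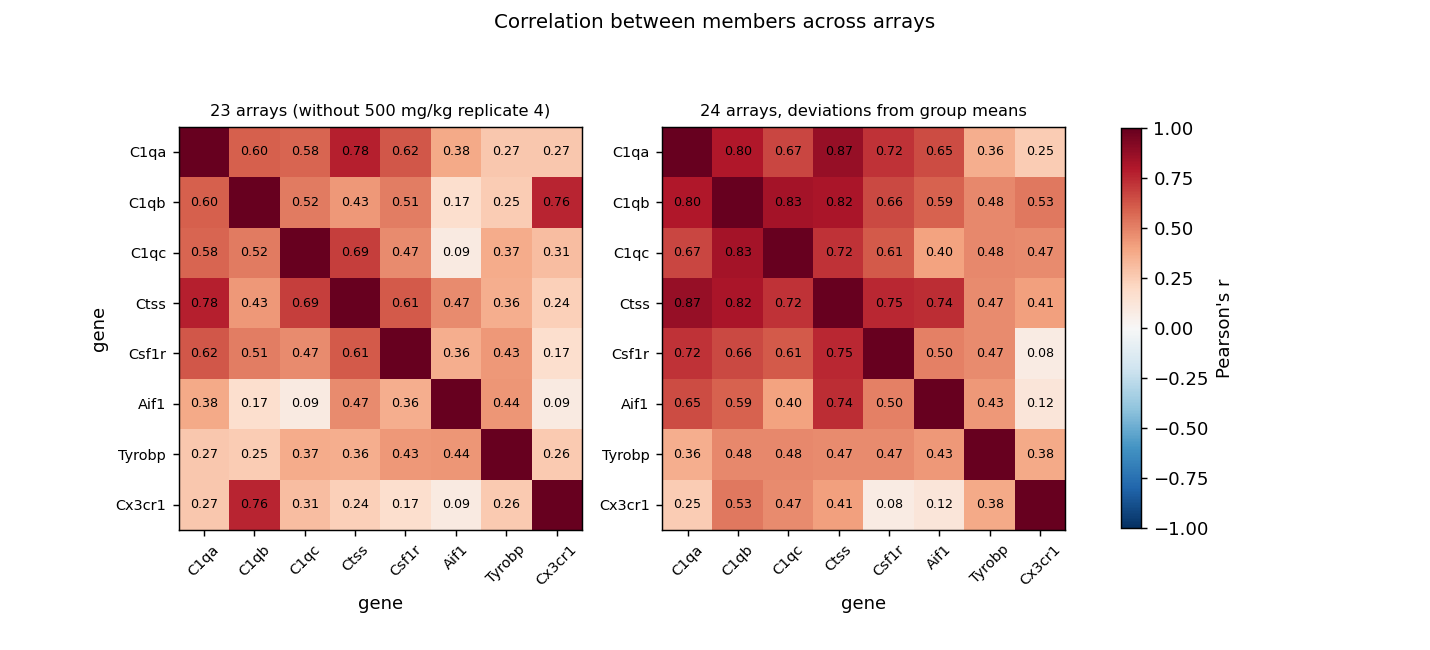
Pearson's r between the 8 members past the filter, written in each cell and coloured from -1 to 1, over 23 arrays without 500 mg/kg replicate 4 (left) and over deviations from the group means of all 24 arrays (right). C1qa, C1qb, C1qc, Ctss and Csf1r form the darkest block, from 0.43 to 0.78 at left, and Aif1, Tyrobp and Cx3cr1 lie lower with most other members.

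As a description, all 28 pairs of members had r above 0 over 24 arrays, from 0.10 to 0.81 with a median of 0.51. The r between pairs of other genes was not computed, so whether this is particular to the members was not tested. Without 500 mg/kg replicate 4 the range was 0.09 to 0.78 with a median of 0.40. Over deviations from the group means of all 24 arrays it was 0.08 to 0.87 with a median of 0.52. The closest pair was C1qa with Ctss, at 0.81 over 24 arrays, 0.78 over 23 and 0.87 within groups. Cx3cr1 went least with the mean of the other 7 members over 24 arrays, at 0.37, and Aif1 over 23 arrays, at 0.39 beside 0.41 for Cx3cr1. Cx3cr1 reached 0.76 with C1qb over 23 arrays. Ctss, C1qa and C1qb went most with the other members, at 0.79, 0.78 and 0.77. Outside the members, the genes with the highest r to the members' mean over 24 arrays, and over 23 in second place, were Ids (0.84 and 0.77), Parp6 (0.83 and 0.79), Aass (0.83 and 0.76), Rab26 (0.81 and 0.75), Rhbdl3 (0.80 and 0.74), Pkig (0.80 and 0.71), Mfge8 (0.79 and 0.70) and Wsb2 (0.79 and 0.68). These were picked as the highest of 10205 genes, so their size carries no test.

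Other genes of the same pathways were counted from lists chosen with results of these data known. Of 22 other microglial identity genes 16 had a probe set of their own and 11 were tested, and 0 rose or fell at any dose. Of 10 partners of the members, such as the Csf1r ligands Csf1 and Il34, the Tyrobp partner Trem2 and the C1q proteases C1r and C1s, 9 were tested and 0 rose or fell. Their smallest F test p values were those of Fcer1g, an immunoreceptor adaptor (limma adjusted p = 0.386), and Il34 (adjusted p = 0.398). Of 30 other complement genes 12 were tested and 0 rose or fell against vehicle. The medians of these 3 lists at 500 mg/kg were -0.21 with 1 of 11 above vehicle, -0.10 with 1 of 9 and -0.10 with 4 of 12, beside 0.0 over all genes. Without 500 mg/kg replicate 4 they were -0.09 with 3 of 11 above vehicle, -0.09 with 2 of 9 and -0.15 with 5 of 12, beside 0.01 over all genes.

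Of 33 genes of microglial activation and phagocytosis 19 were tested, and 1 fell. RT1-Ba, an MHC class II alpha chain gene, read 6.21, 6.40, 6.27 and 6.08 at 20 mg/kg, against 6.86, 7.04, 6.42 and 6.97 in vehicle. Its groups did not overlap, and it fell by 0.58 ± 0.18 (SE, limma adjusted p = 0.0493), where 2.52% of all genes fell. The RT1-Ba call was lost with no filter (adjusted p = 0.0809 in limma), with 1 probe set per gene (adjusted p = 0.0801) and with the values as deposited, where the difference was -0.27 (adjusted p = 0.313). Of 16 phagocyte lysosome genes 15 were tested, and Lamp2, a lysosomal membrane protein gene, fell at 3 doses. In RNA of whole tissue, which cells carried the genes of this list and of the others was not measured. Lamp2 fell by 0.56 ± 0.12 at 5 mg/kg (limma adjusted p = 0.00581, 1.41% of all genes fell), by 0.64 ± 0.12 at 20 mg/kg (adjusted p = 0.00132) and by 0.50 ± 0.12 at 50 mg/kg (adjusted p = 0.0445, 0.176% of all genes fell). Its arrays at these doses lay in the ranges 9.39 to 9.76, 9.29 to 9.71 and 9.43 to 9.87, all below the 9.93 to 10.35 of vehicle. With the values as deposited the Lamp2 differences were -0.31, -0.19 and -0.39 and none passed (limma adjusted p = 0.313, 0.389 and 0.539). In those values the median of all genes was itself 0.2, 0.38 and 0.09 above vehicle at 5, 20 and 50 mg/kg. The deposited differences of Lamp2 and RT1-Ba are not corrected for this shift. These 3 doses are those with the lower 3' to 5' ratios. In the fit that carries the Gapdh ratio the differences were -0.47 ± 0.23, -0.55 ± 0.23 and -0.42 ± 0.19 (SE) and none passed (limma adjusted p = 0.75, 0.768 and 0.767). With each of the 24 arrays left out in turn, Lamp2 passed in 24 fits at 5 and at 20 mg/kg and in 10 at 50 mg/kg (limma adjusted p up to 0.183), and RT1-Ba passed in 7 (adjusted p = 0.0149 to 0.137). With that covariate the RT1-Ba difference was -0.56 (adjusted p = 0.786), and in the lists of this and the preceding paragraph 0 genes rose at any dose.

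**Figure D5:**
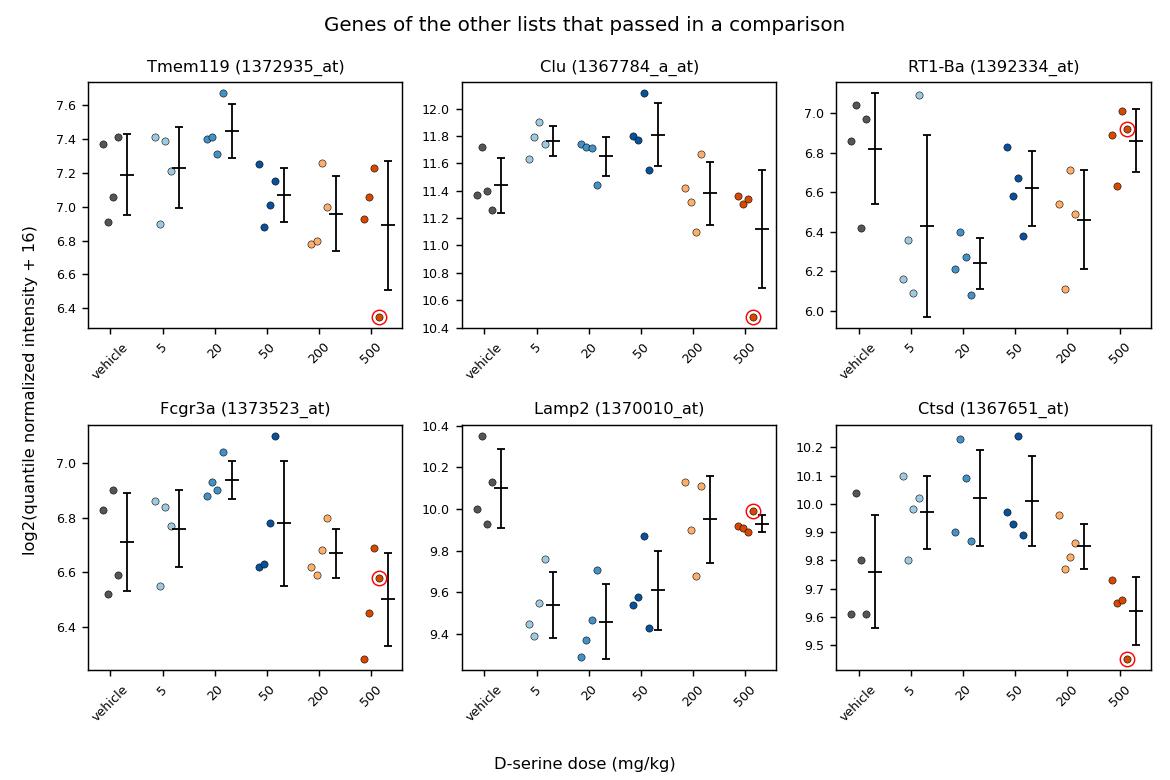
Levels of the 6 genes of the other lists that passed in a comparison, as log2(quantile normalized intensity + 16), by group in order from vehicle to 500 mg/kg. Points are arrays, bars and whiskers the group mean and SD over 4 arrays, and the red ring 500 mg/kg replicate 4. Lamp2 is low at 5, 20 and 50 mg/kg, and in Tmem119 and Clu the ringed array lies well below the rest of its group.

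Between dose groups, 8 comparisons of these lists passed, in 6 genes. They fell in the pairs 500 against 20, 500 against 5 and 200 against 20 mg/kg, where 4.35%, 2.25% and 0.529% of all genes passed. Tmem119, a microglial membrane protein gene, stood at 6.89 ± 0.38 at 500 mg/kg and 7.45 ± 0.16 at 20 mg/kg, a difference of -0.56 ± 0.17 (SE, limma adjusted p = 0.0444), which was -0.38 ± 0.15 without 500 mg/kg replicate 4 and no longer passed (adjusted p = 0.183). Fcgr3a, an Fc gamma receptor gene, stood at 6.50 ± 0.17 at 500 mg/kg and 6.94 ± 0.07 at 20 mg/kg, a difference of -0.44 ± 0.12 (limma adjusted p = 0.0279). The other comparisons were of Clu, the complement regulator clusterin, Ctsd, the lysosomal protease cathepsin D, RT1-Ba and Lamp2. With the Gapdh ratio as a covariate 0 of the 8 passed in limma (adjusted p = 0.841 or above). For 500 against 20 mg/kg the differences were then 0.61 ± 0.33 for RT1-Ba, 0.38 ± 0.21 for Lamp2 and -0.27 ± 0.18 for Ctsd, and -0.15 ± 0.28 for Tmem119, -0.21 ± 0.20 for Fcgr3a and -0.10 ± 0.27 for Clu. Lamp2 was 0.43 ± 0.17 for 200 against 20 mg/kg and Clu -0.22 ± 0.26 for 500 against 5 mg/kg. The covariate widened the SE, for Lamp2 at 500 against 20 mg/kg from 0.12 to 0.21. A call lost in this fit therefore cannot tell the ratio from the dose.

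Markers of other cells that could carry some of these transcripts were set beside the members. Of 10 measured perivascular macrophage and monocyte markers 1 passed the filter, and their summed intensity was 229 to 288 for vehicle, then 189 to 266, 240 to 287, 177 to 228, 212 to 249 and 203 to 303 over the doses from 5 to 500 mg/kg. At 50 mg/kg, where C1qa and Ctss had their lowest means, this sum lay below every vehicle array by little, 228 against 229 at the nearest. The 1 tested marker did not pass at any dose, the others were too dim for the test, and their part in those values was not tested. Of 3 measured neutrophil markers 1 passed the filter and of 7 lymphocyte markers 2, none of them listed at 0 on any array. The neutrophil sum was 44 to 106 for vehicle, then 31 to 265, 86 to 230, 49 to 243, 63 to 441 and 49 to 206 over the doses, overlapping vehicle at each. Its 1 tested marker stood at 0.73 at 20 mg/kg and 1.02 at 200 mg/kg on the log2 scale, and did not pass. At 500 mg/kg, replicate 4 included, the sum of 6 endothelial markers was 1345 to 1442, against 1619 to 2496 in vehicle. That of 3 red cell markers was 1239 to 2364, against 2867 to 4104 in vehicle. Without that array the median log2 differences of these markers at 500 mg/kg were -0.36 and -0.80. At every dose both medians lay below vehicle, from -0.13 to -0.34 for the endothelial and from -0.12 to -1.07 for the red cell markers. The summed intensity of 7 myelin markers was 16854 to 26161 in vehicle. It was 14268 to 17534 at 5 mg/kg and 11808 to 17774 at 20 mg/kg, where C1qb and Cx3cr1 stood highest. That of 6 choroid plexus markers was 391 to 9108 in vehicle, 392 to 457 at 5 mg/kg and 369 to 404 at 20 mg/kg. It reached 8743, 7849 and 6980 at 50, 200 and 500 mg/kg. No tested astrocyte, endothelial, red cell, myelin, choroid plexus or cerebellum marker rose or fell against vehicle in limma at any dose. Of 6 tested forebrain neuron markers 1 rose at 5 mg/kg and 1 at 20 mg/kg. In either direction, 3.23% and 5.16% of all genes were called at these doses. The part of tissue makeup in these values was not tested.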

How the data were processed

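RNA from 24 rats in 6 groups was measured on 1 Affymetrix array each. The deposited values are intensity, 1 linear signal per probe set, made by the authors with GCOS, per the submitters' processing notes. For the software version, the scaling target and detection calls, nothing is stated in the labels, and no scan date or batch was used. Since array medians of log2(intensity + 16) spanned 0.74, over the limit of 0.5, 31042 probe sets without controls were quantile normalized. Of these, the 40% with the lowest mean were left out and 18625 tested. A fold change is on the log2(value + 16) scale and understates that of dim probe sets. The 24 arrays were fitted together in limma 3.58.1 under R 4.3.3, with a mean per group, an intensity trend and Benjamini-Hochberg adjustment of p-values over all probe sets tested. The 4 arrays per group limit the precision. A gene passed where the adjusted p of its brightest probe set was under 0.05, which gave 10205 genes. Exact permutation tests used SciPy 1.17.1, and those of correlations 100000 resamples. The fit was tested on simulated data.

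Gene names came from the platform annotation, where 20832 probe sets had 1 symbol, 436 several and 9831 none, updated through RefSeq (GRCr8) for 20764 by Entrez ID and 2 by accession, with 66 kept. The labels name a separate animal for each array, so replicates are biological, and replicate numbers only name arrays. No array pair held identical values (0 pairs). The members, the lists, the genes named and the tests were chosen with earlier results of these data known. Named are all members, the genes of each list that passed in a comparison (at most 4 per list, otherwise the 2 with the smallest F test p), and the 8 genes most like the members' mean. Alternatives were no filter or 60%, median centring, values as deposited, other pseudocounts, other moderation, array weights, 1 probe set per gene, the probe set with the smallest p, only the 8 arrays compared, dose scales, the Gapdh ratio as a covariate, and each array left out in turn. The beta-actin ratio as a covariate, a second normalization without 500 mg/kg replicate 4, and list medians and dose pairs without it were added after the data were seen.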

Additional observations from a re-analysis of the deposited data

Results flagged for a closer look

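Within groups of 4 arrays, 9 single arrays lay far from the other 3, by a gap, as a share of the group's range, above Dixon's 95% critical value, among 114 groups looked at, of which chance gives about 5.7 (1 in 20). In Aif1 1368558_s_at, 200 mg/kg replicate 3 read 6.61 beside 6.86 to 6.87 (gap 0.933), and in Aif1 1369489_at, 50 mg/kg replicate 3 read 6.24 beside 6.79 to 6.82 (gap 0.941). In C1qa, 50 mg/kg replicate 1 read 9.22 beside 8.39 to 8.47 (gap 0.899) and 200 mg/kg replicate 3 read 9.23 beside 8.95 to 9.0 (gap 0.84). In Ctss, vehicle replicate 1 read 11.15 beside 10.54 to 10.60 (gap 0.905). In Fcer1g, 50 mg/kg replicate 1 read 8.39 beside 7.97 to 8.03 (gap 0.857), and in Il34, 5 mg/kg replicate 2 read 7.25 beside 7.82 to 7.91 (gap 0.866). In Clu, 20 mg/kg replicate 4 read 11.44 beside 11.71 to 11.74 (gap 0.896) and 500 mg/kg replicate 4 read 10.48 beside 11.30 to 11.36 (gap 0.936).

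Differences between dose groups passed the limma test of the difference itself in 8 comparisons, none of them of a member. Of all genes, 4.35% passed at 500 against 20 mg/kg, 2.25% at 500 against 5 mg/kg and 0.529% at 200 against 20 mg/kg. Clu stood at 11.12 ± 0.43 at 500 mg/kg and 11.76 ± 0.11 at 5 mg/kg (difference -0.64, adjusted p = 0.0254), and at 11.65 ± 0.14 at 20 mg/kg (difference of 500 from 20 mg/kg -0.53, adjusted p = 0.0469). Tmem119 differed by -0.56 (adjusted p = 0.0444), Fcgr3a by -0.44 (adjusted p = 0.0279), Ctsd by -0.40 (adjusted p = 0.0226), RT1-Ba by 0.62 (adjusted p = 0.0406) and Lamp2 by 0.47 (adjusted p = 0.018) between 500 and 20 mg/kg, and Lamp2 by 0.49 between 200 and 20 mg/kg (adjusted p = 0.0343). Without 500 mg/kg replicate 4, Clu differed by -0.43 (adjusted p = 0.0789) and -0.32 (adjusted p = 0.176), Ctsd by -0.34 (adjusted p = 0.0793) and RT1-Ba by 0.61 (adjusted p = 0.0959), and none of these passed. With each of the 24 arrays left out in turn, Fcgr3a passed in 18 fits and Lamp2 in 22 for 500 against 20 mg/kg. With no filter the Fcgr3a difference did not pass (limma adjusted p = 0.0505).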

How the results depend on the processing

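No paired analysis was possible because the labels give each array an animal of its own and no replicate number shared between groups. The counts of members called stayed at 0 under the alternatives run, with these exceptions. At 20 mg/kg against vehicle the count was 1 (C1qb) with each array centred on its median, with array weights, with only the 8 arrays of both groups and after normalizing and fitting again without 500 mg/kg replicate 4, and 4 with the values as deposited. It was 0 to 1 when each array was left out in turn, the 1 being Cx3cr1 without vehicle replicate 1 and C1qb without 50 mg/kg replicate 1 or without 500 mg/kg replicate 4. The F test over doses called 4 members and the pairs of dose groups 14 with the values as deposited, and the pairs 1 with array weights. The other counts were 0 to 0 over the 24 arrays left out. In the deposited values the median of all genes at 20 mg/kg was itself 0.38 above vehicle, and C1qa, C1qb, Csf1r and Cx3cr1 stood 0.21, 0.52, 0.13 and 0.33 above that median.

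Among single genes that passed, direction turned in 4 places. For 500 against 20 mg/kg, Lamp2 was -0.04 with the values as deposited, and Clu 0.31 and Ctsd 0.05 with the beta-actin ratio as a covariate. For 500 against 5 mg/kg Clu was 0.11 with that covariate. In the deposited values the median of all genes stood at 0.38 against vehicle at 20 mg/kg and at -0.07 at 500 mg/kg. The Lamp2 value of -0.04 is not corrected for this shift between arrays. The cause of these 4 turns was not tested. A filter of 60% left out Cx3cr1 and Tyrobp among the members and RT1-Ba and Fcgr3a among the other genes named. With 4 arrays per group and a median SE of 0.13 over all genes, small differences of the members were not detectable here, and Cd68 and Itgam lay under the filter on dim probe sets.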
